A study of Rattus norvegicus with 9 samples.

Results

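The AP-1 (activator protein 1) transcription factors were followed at the RNA level in the femora of Sprague-Dawley rats. They are a family of basic leucine zipper (bZIP) proteins that bind DNA as pairs: a Fos protein pairs with a Jun protein, Jun proteins can also pair with each other, and Atf3, Batf and the small Maf protein Maff pair with members of these families. Most of their genes are transcribed at low rates in resting tissue and are switched on within minutes by growth factors, mechanical load or stress through mitogen-activated protein kinases (MAPK), after which the messenger RNAs decay quickly. In bone, Fos is known from mice to be required for osteoclasts, the cells that resorb bone, while Fosl1, Fosl2 and Junb have known roles in bone-forming osteoblasts.

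The 10 members were Fos, Fosb, Fosl1, Fosl2, Jun, Junb, Jund, Atf3, Batf and Maff, each with 1 row among the 32623 gene rows measured. The family was chosen by measured values, the low levels of Fos, Fosb and Atf3 in the treated femora, and for the 10 members every difference that involves the treated group is given as a description without a test. Of the 10 members, 9 had a mean of at least 1 FPKM (fragments per kilobase, a level scaled for gene length and sequencing depth) over all libraries and were among the 13886 genes tested. Fosl1 fell below that minimum.

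Poly(A) RNA was sequenced from 9 femur libraries, all labelled wild type, in 3 groups of 3. The treated rats received the herb Desertliving Cistanche, a desert plant of traditional Chinese medicine, and the series title places this treatment in ovariectomized rats. The second group were ovariectomized rats, whose ovarian oestrogen source had been removed, and the third were normal rats, called controls here. The labels state no age, dose, route or duration, and they do not say that each library is another rat, so p-values measure spread among the libraries, which may be technical. A femur sample mixes bone, marrow, cartilage and adhering soft tissue, and in such bulk RNA fewer cells of a type and less RNA per cell cannot be told apart.

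Libraries held 54992823 to 66531156 counts. Markers of osteoblasts, osteocytes, osteoclasts and marrow cells were present in all groups. Of 13 marker lists, the summed FPKM of 1 did not overlap between treated and ovariectomized rats: the 6 fibroblast and periosteum genes summed to 193 to 246 FPKM in treated rats and to 256 to 399 FPKM in ovariectomized rats, with 228 to 382 FPKM in controls. The 6 adipocyte genes summed to 576 to 887 FPKM in treated rats, to 497 to 792 FPKM in ovariectomized rats and to 264 to 484 FPKM in controls. The 7 skeletal muscle genes summed to 637 to 2947 FPKM in ovariectomized rats and 203 to 635 FPKM in controls, and the 6 cartilage genes to 34.7 to 49.8 FPKM in ovariectomized rats and 70.5 to 253 FPKM in controls. All members of these 4 lists had a mean of at least 1 FPKM except the cartilage gene Matn3. The part of these tissues in the AP-1 values was not tested.

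The promoters of the family differ in the sites they hold, and those of Junb, an inducible gene whose treated and untreated libraries are separated below, and Jund, the steadily transcribed Jun gene whose groups overlap, are shown. They were picked with these levels known, and a link between the sites and the levels was not tested. Each window runs from 250 bases before to 50 bases after the gene start in RefSeq on the GRCr8 build, written 5′ to 3′ along the gene. Capitals mark TGACG or its reverse complement, which is one side of the cyclic AMP response element (CRE, TGACGTCA) bound by CREB and ATF proteins, and the TATA box letters TATAAA. Junb lies at chr19:40080876-40081175 on the plus strand and Jund at chr16:18769722-18770021 on the minus strand.
Junb: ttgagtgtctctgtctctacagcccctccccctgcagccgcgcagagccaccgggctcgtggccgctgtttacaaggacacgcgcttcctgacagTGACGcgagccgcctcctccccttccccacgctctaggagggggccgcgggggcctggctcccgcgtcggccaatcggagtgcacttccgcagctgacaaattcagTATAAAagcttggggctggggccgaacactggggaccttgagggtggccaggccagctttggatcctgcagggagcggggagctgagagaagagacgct
Jund: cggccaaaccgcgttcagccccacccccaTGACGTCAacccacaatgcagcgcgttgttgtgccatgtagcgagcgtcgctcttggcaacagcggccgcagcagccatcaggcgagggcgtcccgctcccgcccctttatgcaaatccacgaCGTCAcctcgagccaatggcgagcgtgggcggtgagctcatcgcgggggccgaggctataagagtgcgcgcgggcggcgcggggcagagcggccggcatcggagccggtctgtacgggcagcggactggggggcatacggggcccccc

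The Jund window holds a whole CRE whose first base is 221 bases before the start, and a further CGTCA 98 bases before it. The Junb window holds TGACG 155 bases before the start and TATAAA 49 bases before it, and no whole CRE. Windows were present for 7 of the 10 members (Batf, Fosb, Fosl1, Fosl2, Junb, Jund and Maff). The Fosb window starts inside the gene span given by RefSeq, so it may not be the promoter, and it was not printed. Searched on both strands, TGACGTCA was found in 2 of the 7, Jund and Maff (51 bases before the start), and in 1.83% of all 33469 windows. TGACG, which every whole CRE also contains, was found in 5 of the 7 and in 21.2% of all windows. TATAAA was found in 2 of the 7, Junb and Fosb, and in 14.2% of all windows. The Fosb match lay on the opposite strand, 180 bases before the start of its window's gene, and is not read as a TATA box. TGAGTCA, the site that Fos and Jun pairs bind, was in 0 of the 7 and in 4.63% of all windows, and the CArG box, the site of serum response factor, in 0 of the 7 and in 1.64% of all windows.

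Across the femora the family spanned a wide range of levels, and the leading gene differed between groups. Fos had the highest FPKM of the 10 members in all 6 ovariectomized and control libraries, and Jund had the highest in all 3 treated libraries. In treated rats the mean levels ran Jund, Junb, Fos, Jun, Fosl2, Batf, Fosb, Maff, Fosl1 and Atf3, from 36.9 ± 3.57 FPKM for Jund to 0.693 ± 0.228 FPKM for Atf3 (SD, n = 3). In ovariectomized rats they ran Fos, Jund, Junb, Jun, Fosb, Fosl2, Batf, Atf3, Maff and Fosl1, from 55.4 ± 12.9 FPKM for Fos to 0.688 ± 0.0623 FPKM for Fosl1. The control order was Fos, Junb, Jund, Jun, Fosb, Fosl2, Batf, Maff, Atf3 and Fosl1, from 57.3 ± 4.44 FPKM to 0.602 ± 0.247 FPKM.

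The ranges of several neighbours in these orders overlapped. The ranges of Fosl2 and Batf overlapped in every group, as did those of Junb and Fos, Maff and Fosl1, and Fosl1 and Atf3 in treated rats. In ovariectomized rats Jund and Junb, Junb and Jun, and Atf3 and Maff also overlapped, and in controls Junb and Jund, Jund and Jun, Maff and Atf3, and Atf3 and Fosl1. Compared within each library, some of these neighbours still kept 1 order in 3 of 3 libraries: Maff above Fosl1 in treated rats, Junb above Jun and Atf3 above Maff in ovariectomized rats, and Jund above Jun, Fosl2 above Batf, Maff above Atf3 and Atf3 above Fosl1 in controls. The other overlapping pairs changed order between libraries of a group. Fos lay above its next neighbour without overlap in ovariectomized rats and in controls, and Jund did so in treated rats. Fosb held the place below Jun in both untreated groups, and in treated rats its FPKM stood below Fosl2 and Batf as well, without overlap with Batf. These orders between genes depend on the lengths behind FPKM, which the deposited values imply as 3903 bases for Fosb, 796 for Fosl2 and 1047 for Batf. In counts, treated libraries held 1419 to 1506 for Fosb, 347 to 403 for Fosl2 and 435 to 555 for Batf.

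**Figure D1:**
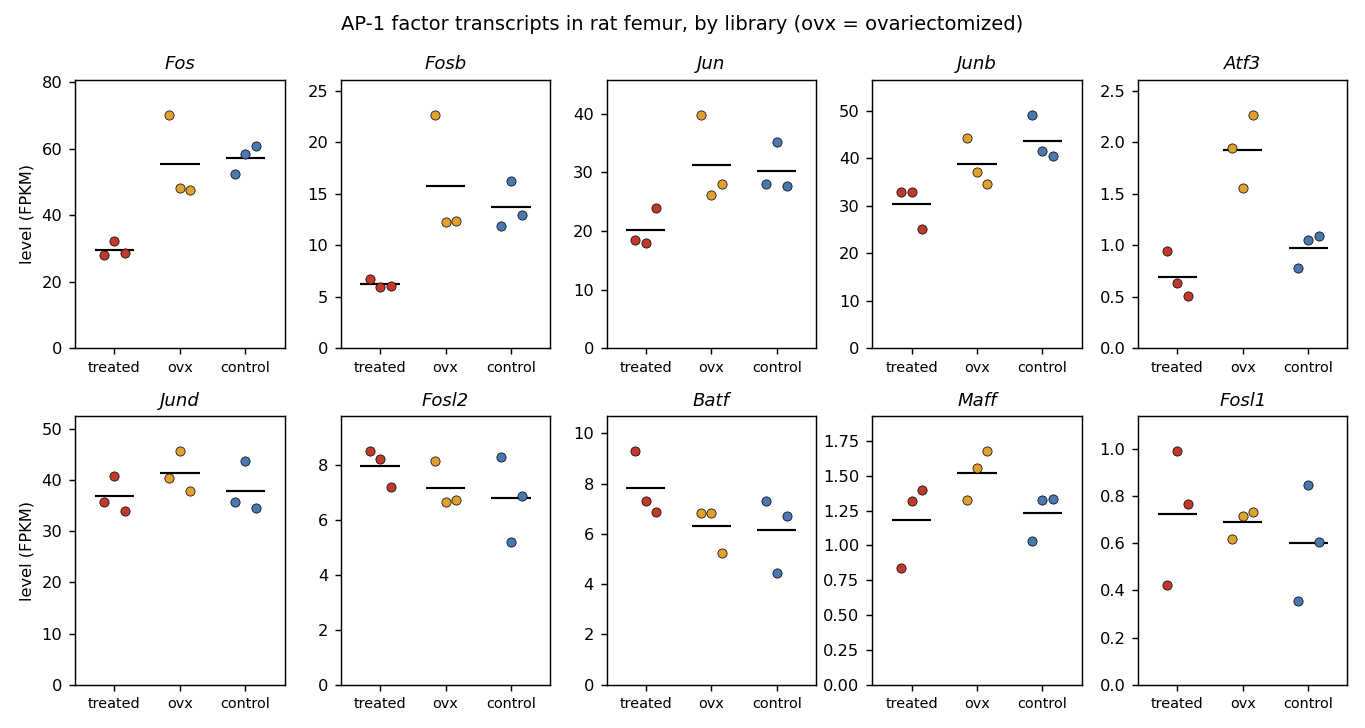
Level in FPKM (vertical axes, from 0) of each of the 10 AP-1 factors in treated, ovariectomized (ovx) and control femora. Points are libraries in order of replicate number and bars are means of 3; Fos, Fosb, Jun and Junb are lower in the 3 treated libraries than in the 6 others, and Atf3 stands highest in ovariectomized rats.

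Fos, the founding member and the partner with which Jun forms the classical AP-1 pair, lies on chromosome 6 from 109300433 to 109303299 in the deposited coordinates, for which no build is stated. Its level was 28.0, 32.3 and 28.7 FPKM in treated replicates 1, 2 and 3, 70.3, 48.2 and 47.7 FPKM in ovariectomized replicates 1, 2 and 3, and 52.3, 58.6 and 60.9 FPKM in control replicates 1, 2 and 3. The treated libraries lay below all others, and ovariectomized replicate 1 stood above the rest of its group. The fitted log2 fold change was -0.94 ± 0.15 (SE) for treated against ovariectomized rats and -1.03 ± 0.15 for treated against control rats. These 2 comparisons share the treated libraries.

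Fosb, which is induced with Fos and is known in mice for a shortened isoform that raises bone mass when overexpressed, spans 80214494 to 80221710 on chromosome 1. It was at 6.75, 5.95 and 5.99 FPKM in treated rats, at 22.7, 12.2 and 12.4 FPKM in ovariectomized rats and at 11.9, 16.3 and 12.9 FPKM in controls. Again the treated libraries lay below the other 6 and ovariectomized replicate 1 was the highest of all 9. The log2 fold change was -1.38 ± 0.25 (SE) against ovariectomized rats and -1.23 ± 0.25 against controls. Relative to Fos in the same library, Fosb FPKM was 0.184 to 0.241 in treated rats, 0.254 to 0.323 in ovariectomized rats and 0.213 to 0.278 in controls, so that the ratio in treated rats lay below that of ovariectomized rats and overlapped that of controls.

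Jun, the most potent transcriptional activator among the Jun proteins, was at 18.4, 17.9 and 24.0 FPKM in treated rats, at 39.9, 26.2 and 28.0 FPKM in ovariectomized rats and at 27.9, 35.1 and 27.7 FPKM in controls. Its treated libraries lay below the 6 others, and ovariectomized replicate 1 was once more the highest. Junb, which is known to temper the activity of Jun and to act in osteoblasts and osteoclasts of mice, was at 32.9, 32.8 and 25.2 FPKM in treated rats, at 44.2, 37.2 and 34.6 FPKM in ovariectomized rats and at 49.1, 41.4 and 40.5 FPKM in controls. The 2 untreated groups overlapped each other for Jun and for Junb. Jun had a log2 fold change of -0.69 ± 0.19 (SE) against ovariectomized rats and -0.68 ± 0.19 against controls, and Junb of -0.39 ± 0.15 and -0.61 ± 0.15.

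Jund behaved differently from the other Jun genes in that its groups overlapped in every comparison. This gene, transcribed steadily in most tissues and known for slowing cell growth, was at 35.8, 40.9 and 34.0 FPKM in treated rats, at 40.5, 45.6 and 37.9 FPKM in ovariectomized rats and at 35.7, 43.7 and 34.5 FPKM in controls. Its log2 fold change was -0.20 ± 0.13 (SE) for treated against ovariectomized rats and -0.13 ± 0.13 for treated against control rats. The difference between Jund and the other Jun genes was not tested, since the treated libraries chose the family.

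Atf3, a stress-induced bZIP factor that can repress as well as activate its targets, was the member whose ovariectomized libraries also stood apart from controls. Its gene spans 109817728 to 109849632 on chromosome 13. The level was 0.946, 0.630 and 0.504 FPKM in treated rats, from 93 to 165 counts. It was 1.94, 1.56 and 2.27 FPKM in ovariectomized rats, from 261 to 439 counts, and 0.783, 1.05 and 1.09 FPKM in controls, from 150 to 222 counts. The ovariectomized libraries were above the other 6, while treated and control libraries overlapped. The log2 fold change was -1.50 ± 0.28 (SE) for treated against ovariectomized rats and -0.57 ± 0.28 for treated against control rats.

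The remaining members overlapped between groups in every comparison when read in scaled counts, the scale used for all counts of overlap here. Fosl2, a late-induced Fos relative that lacks the strong activation domain of Fos, was at 7.19 to 8.48 FPKM in treated rats, 6.65 to 8.13 FPKM in ovariectomized rats and 5.19 to 8.28 FPKM in controls. Batf, a small factor of lymphocytes and myeloid cells, had ranges of 6.85 to 9.27, 5.26 to 6.84 and 4.43 to 7.31 FPKM in treated, ovariectomized and control rats. Its treated and ovariectomized libraries were apart in FPKM by a narrow margin but overlapped in CPM (counts scaled to library size by TMM, the trimmed mean of M values), 6.86 to 9.60 CPM in treated rats and 5.44 to 7.20 CPM in ovariectomized rats. Maff, a small Maf protein without an activation domain, was at 0.839 to 1.40 FPKM, 1.32 to 1.67 FPKM and 1.03 to 1.33 FPKM in the same 3 groups, with 98 to 216 counts.

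Fosl1, a Fos target in the osteoclast lineage of mice, was the least abundant gene of the family in both untreated groups. It had 42 to 107 counts in treated libraries, 69 to 81 counts in ovariectomized libraries and 39 to 93 counts in control libraries, and all groups overlapped. Without the minimum on FPKM its log2 fold change was 0.04 ± 0.41 (SE) for treated against ovariectomized rats, so that the estimate was small beside its error. Fosl2 and Batf had higher estimates in treated rats, at 0.11 ± 0.20 and 0.27 ± 0.23 against ovariectomized rats and at 0.15 ± 0.20 and 0.27 ± 0.22 against controls, and the libraries of the groups overlapped. Maff was at -0.40 ± 0.23 and -0.14 ± 0.23.

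Counted over the 9 measured members, treated rats lay below ovariectomized rats without overlap for 5 members (Fos, Fosb, Jun, Junb and Atf3), as did 6.63% of all tested genes, and above them for 0 members, as did 5.75% of tested genes. Treated rats lay below controls without overlap for 4 members (the same without Atf3), as did 6.78% of tested genes, and above them for 0 members, as did 6.34%. In each of these comparisons 7 of the 9 members had lower estimates. The median log2 fold change of the members was -0.40 for treated against ovariectomized rats and -0.57 for treated against control rats, beside medians over all tested genes of -0.0042 and -6e-06. These counts describe the choice of the family, which used the same libraries. Among all genes, edgeR's quasi-likelihood test called 0 at an adjusted p under 0.05 in both comparisons. At an unadjusted p under 0.05 it called 722 genes (5.2%) and 1223 genes (8.81%), and DESeq2 called 35 (0.252%) and 153 (1.1%) at its adjusted p.

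**Figure D2:**
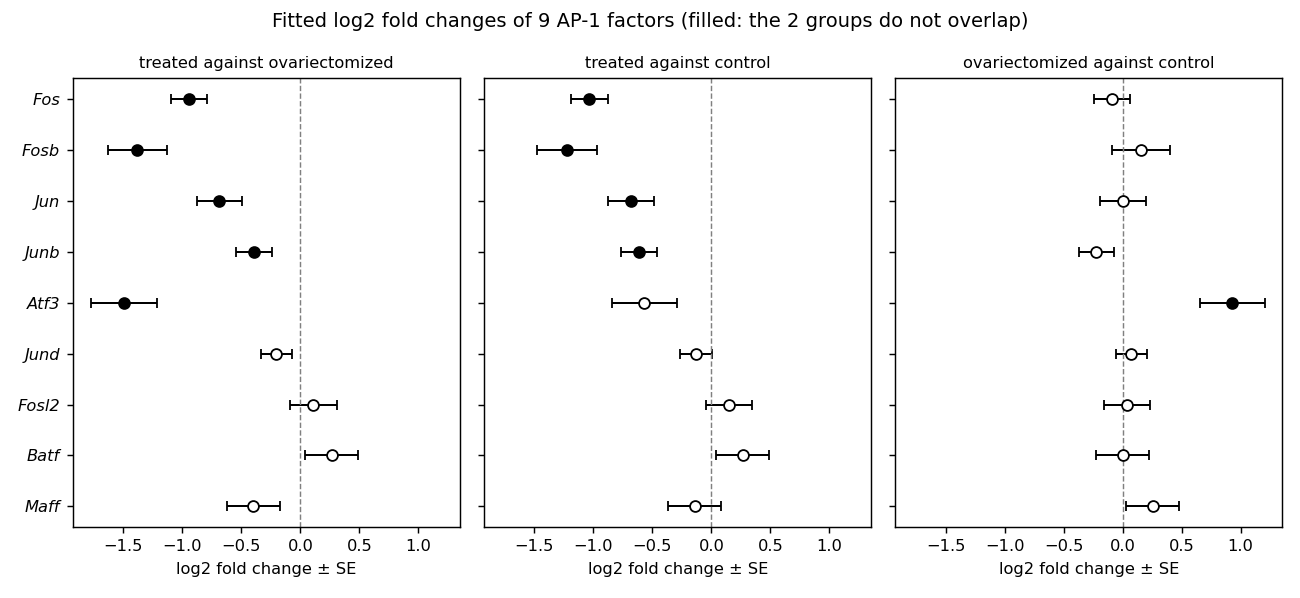
Log2 fold change (horizontal axes, bars are ± SE) of the 9 measured AP-1 factors for treated against ovariectomized, treated against control and ovariectomized against control rats, with 3 libraries per group. Filled points are members whose groups do not overlap: 5 on the lower side in the first comparison, 4 on the lower side in the second and Atf3 alone, on the higher side, in the third.

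The treated libraries held less RNA of the family in all and a different mix of its members. The FPKM of the 10 members summed to 142, 148 and 135 in treated replicates 1, 2 and 3, to 236, 187 and 177 in ovariectomized replicates and to 195, 208 and 193 in control replicates. All treated libraries lay below the others, and ovariectomized replicate 1 was the highest. The Fos family (Fos, Fosb, Fosl1 and Fosl2) supplied 30.8% to 32.0% of that sum in treated rats, 36.3% to 43.0% in ovariectomized rats and 37.4% to 42.1% in controls. The Jun family supplied 61.4% to 61.8% in treated rats, 52.7% to 58.4% in ovariectomized rats and 53.2% to 57.9% in controls.

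Within the sum, Jund accounted for 25.3% to 27.6% in treated rats, for 17.1% to 24.4% in ovariectomized rats and for 17.9% to 21.0% in controls. Fos accounted for 19.7% to 21.8% in treated rats, for 25.8% to 29.7% in ovariectomized rats and for 26.9% to 31.5% in controls. The ratio of Fos to Jund FPKM within a library, which does not depend on how libraries are scaled, was 0.782, 0.789 and 0.845 in treated rats, against 1.74, 1.06 and 1.26 in ovariectomized rats and 1.47, 1.34 and 1.76 in controls. The ratio was below 1 in every treated library and above 1 in the other 6. As Fos was chosen for its low treated values, no test was made of these shares and ratios.

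**Figure D3:**
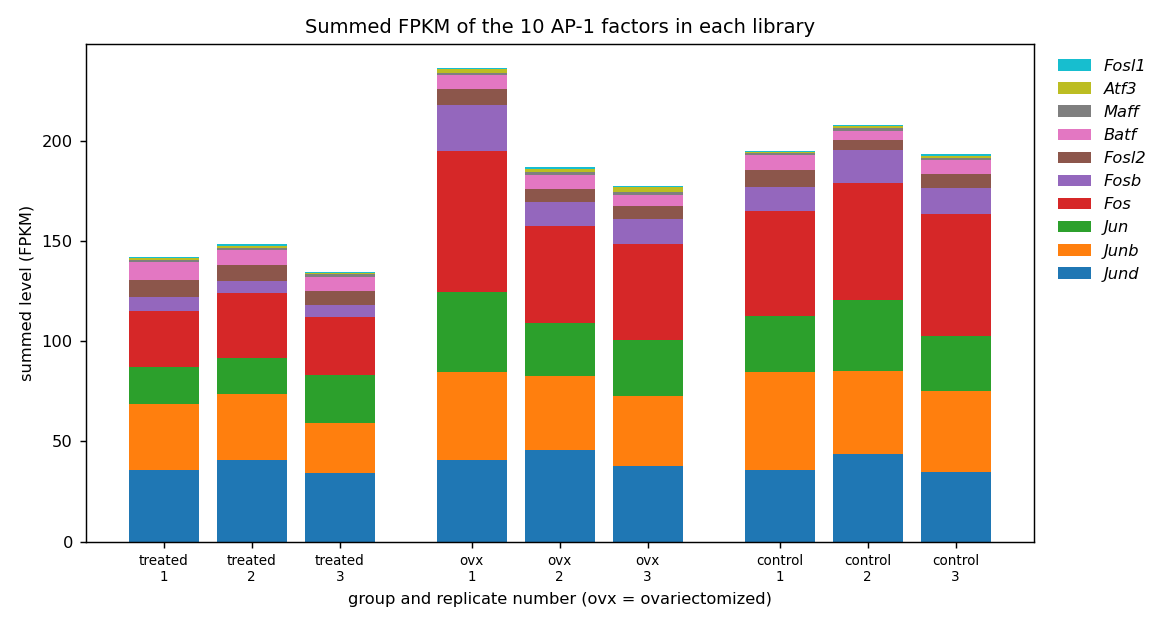
Summed FPKM (vertical axis, from 0) of the 10 AP-1 factors in each of the 9 libraries, stacked by gene and ordered as treated, ovariectomized (ovx) and control. The sums are 135 to 148 in treated rats, 177 to 236 in ovariectomized rats and 193 to 208 in controls, and the Jund layer at the bottom is 34.0 to 45.6 FPKM throughout, while the Fos layer is 28.0 to 32.3 FPKM in treated rats and 47.7 to 70.3 FPKM in the other libraries.

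Ovariectomized rats were also compared with controls. The labels state no sham operation for the controls, so loss of the ovaries and the surgery cannot be told apart. The skeletal muscle, cartilage and adipocyte sums given above did not overlap between these groups either, and their part was not tested. This comparison sets only untreated libraries against each other, and it was tested in the fit over all genes. That fit took its spread from all 9 libraries, so the treated libraries that chose the family enter the errors and p-values. Of the 9 measured members, 6 had higher and 3 lower estimates, and their median log2 fold change was 0.04, beside -0.0037 over all tested genes. edgeR called 0 of the 9 members at an adjusted p under 0.05, and 0% of the 13886 tested genes. At an unadjusted p under 0.05 it called 1 member, Atf3, and 5.05% of the tested genes. DESeq2 called 0 members and 0.425% of the tested genes.

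Atf3 averaged 5.83 ± 1.02 CPM in ovariectomized rats and 3.06 ± 0.493 CPM in controls (SD, n = 3), with no overlap. It was the 1 member of 9 without overlap, where 5.02% of the tested genes stood apart on the higher side and 8.94% in either direction. Its log2 fold change was 0.93 ± 0.28 (SE), with an edgeR adjusted p of 0.892 and a DESeq2 adjusted p of 0.146, so that it did not pass. With each single library left out in turn, its log2 fold change lay between 0.80 and 1.05. The ovariectomized libraries of this comparison are the ones against which Atf3 was noted as low in treated rats, so its high values there are not independent of that choice.

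For the other members the ovariectomized and control groups overlapped. Fos averaged 91.8 ± 21.9 CPM in ovariectomized rats and 97.7 ± 6.53 CPM in controls, a log2 fold change of -0.09 ± 0.15 (SE). Fosb was at 0.15 ± 0.25, Jun at 0.0027 ± 0.19, Junb at -0.22 ± 0.15, Jund at 0.07 ± 0.13, Fosl2 at 0.04 ± 0.20, Batf at -0.0004 ± 0.22 and Maff at 0.25 ± 0.23. Ovariectomized replicate 1 weighed on the inducible genes: without it Fos was at -0.30, Fosb at -0.21 and Jun at -0.21 against controls, and their treated estimates against ovariectomized rats were -0.73, -1.02 and -0.47.

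Other genes of the AP-1 pathway were read from 6 lists. No member of any list passed edgeR at an adjusted p under 0.05 in any comparison. The same held for all 13886 tested genes, so this outcome does not set the lists apart. The kinases that carry signals to AP-1 (15 of 17 tested) had a median log2 fold change of 0.07 in treated against ovariectomized rats, with 9 higher and 6 lower estimates. Mapk9, a Jun N-terminal kinase, averaged 44.8 ± 1.51 CPM in treated rats against 34.5 ± 3.55 CPM in ovariectomized rats, a log2 fold change of 0.38 ± 0.11 (SE) with an edgeR adjusted p of 0.929. Map2k3, which activates p38 kinase, had 74.3 ± 6.72 CPM in treated rats and 94.8 ± 10.9 CPM in ovariectomized rats, at -0.35 ± 0.11. The groups did not overlap for Mapk9 or Map2k3, nor for 12.4% of all tested genes.

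In ovariectomized against control rats the same kinases had a median of 0.08, with Mapk9 at -0.23 ± 0.11 and Map2k3 at 0.19 ± 0.11. Mapkapk2, a kinase downstream of p38, was at 0.08 ± 0.06 and was the 1 kinase of 15 without overlap. On the higher side 5.02% of all tested genes stood apart. The serum response, ETS and CREB factors that act on the promoters of Fos and its relatives (9 tested) had medians of 0.03 for treated against ovariectomized and -0.02 for ovariectomized against control rats, and the groups overlapped for all 9 genes in both. Creb1 was at -0.25 ± 0.19 and -0.27 ± 0.19 in these comparisons. Elk3 and Mrtfa were at 0.10 ± 0.08 and 0.15 ± 0.12 in treated against ovariectomized rats, and Crtc2 was at 0.09 ± 0.07 in ovariectomized against control rats. Elk4 ranged from 31.3 to 163 CPM in controls, with control replicate 2 lowest, against 128 to 183 CPM in ovariectomized rats.

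The MAPK phosphatases switch the kinases off and are themselves induced by them. Of 10 tested genes, 3 had higher and 7 lower estimates in treated against ovariectomized rats, with a median of -0.04. Dusp1, the phosphatase of stress kinases, was at -0.28 ± 0.25 (SE), Dusp2 at 0.19 ± 0.16 and Dusp14 at -0.21 ± 0.21. In ovariectomized against control rats the median was 0.14. Dusp4 had 12.6 ± 3.56 CPM in ovariectomized rats and 7.90 ± 1.54 CPM in controls (0.67 ± 0.22, edgeR adjusted p = 0.892), and Dusp6 was at 0.22 ± 0.11. Dusp5 was at 0.36 ± 0.13 and was the 1 gene of 10 with no overlap, where 5.02% of all tested genes stood apart on the higher side. In treated against control rats DESeq2 called 1 gene of the list, Dusp4, as higher, where it called 1.1% of all tested genes in either direction.

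Other bZIP proteins that can pair with the members (13 of 15 tested) had medians of -0.06 in treated against ovariectomized rats and 0.0085 in ovariectomized against control rats. Atf7 had 36.2 ± 2.10 CPM in treated rats and 40.7 ± 0.948 CPM in ovariectomized rats, at -0.17 ± 0.07 (SE), with no overlap, and was at 0.11 ± 0.07, also without overlap, in ovariectomized against control rats. Nfe2l2, the regulator of antioxidant genes, was at 0.15 ± 0.08 (no overlap) in treated against ovariectomized rats. Ddit3, a stress-induced factor that pairs with C/EBP proteins, was at 0.17 ± 0.11 (no overlap) and Mafk at 0.14 ± 0.10 in ovariectomized against control rats. In treated against ovariectomized rats 1 of the 13 was apart on the higher side and 2 on the lower side. All tested genes had 5.75% and 6.63% there. In ovariectomized against control rats 2 were apart on the higher side and 0 on the lower side, beside 5.02% and 3.92% of all tested genes.

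Genes known as AP-1 targets include proteases, adhesion genes and osteoclast genes. Of 17 tested genes, 11 had higher and 6 lower estimates in treated against ovariectomized rats, with a median of 0.04. Mmp9, the gelatinase of osteoclasts and neutrophils, had 732 ± 105 CPM in treated rats and 559 ± 35.6 CPM in ovariectomized rats (0.39 ± 0.16 SE, edgeR adjusted p = 0.929). It was the 1 gene of 17 without overlap, where 5.75% of all tested genes stood apart on the higher side. Itgb3 and Timp1 were at 0.15 ± 0.14 and -0.24 ± 0.24. The osteoclast targets Acp5, Ctsk and Nfatc1 were named with their values known and were at 0.04 ± 0.43, -0.10 ± 0.48 and 0.05 ± 0.12. With the errors of Acp5 and Ctsk, a difference as large as that of Fos was not detectable in them.

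In ovariectomized against control rats, 14 of the 17 targets had lower estimates, with a median of -0.17. Hmox1, the haem-degrading enzyme haem oxygenase 1, had 164 ± 41.4 CPM in ovariectomized rats and 244 ± 29.8 CPM in controls (-0.57 ± 0.22 SE, edgeR adjusted p = 0.941), with no overlap, which held on the lower side for 3.92% of all tested genes. Ccl2 and Plau were at 0.70 ± 0.34 and 0.36 ± 0.19. Haemoglobin transcripts took 6.89% to 8.82% of counts in treated rats, 8.41% to 10.1% in ovariectomized rats and 10.6% to 16.2% in controls, and their part in the Hmox1 values was not tested.

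Immediate early genes outside the family are induced by the same signals as Fos. Of 16 tested genes, 15 had lower estimates in treated against ovariectomized rats, with a median of -0.19, and 3 were apart on the lower side (Egr1, Ccn2 and Nr4a1), as were 6.63% of all tested genes. Egr1, a zinc finger factor, had 60.2 ± 6.79 CPM in treated rats and 94.7 ± 19.3 CPM in ovariectomized rats, at -0.65 ± 0.14 (SE, edgeR adjusted p = 0.906, DESeq2 adjusted p = 0.0253). The matricellular gene Ccn2 was at -0.64 ± 0.20 and the orphan receptor gene Nr4a1 at -0.55 ± 0.19. In ovariectomized against control rats the median of the list was 0.08, with Sgk1 at 0.34 ± 0.14 and Klf4 at 0.17 ± 0.11. Egr1 was at -0.36 ± 0.14 there (76.8 to 115 CPM in ovariectomized rats and 120.1 to 125 CPM in controls). It was the 1 gene of 16 without overlap, where 3.92% of all tested genes stood apart on the lower side. In treated against control rats DESeq2 called 2 genes of the list, Ccn1 and Egr1, both lower, where it called 1.1% of all tested genes. The lists were drawn up with earlier results of these data known.

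**Figure D4:**
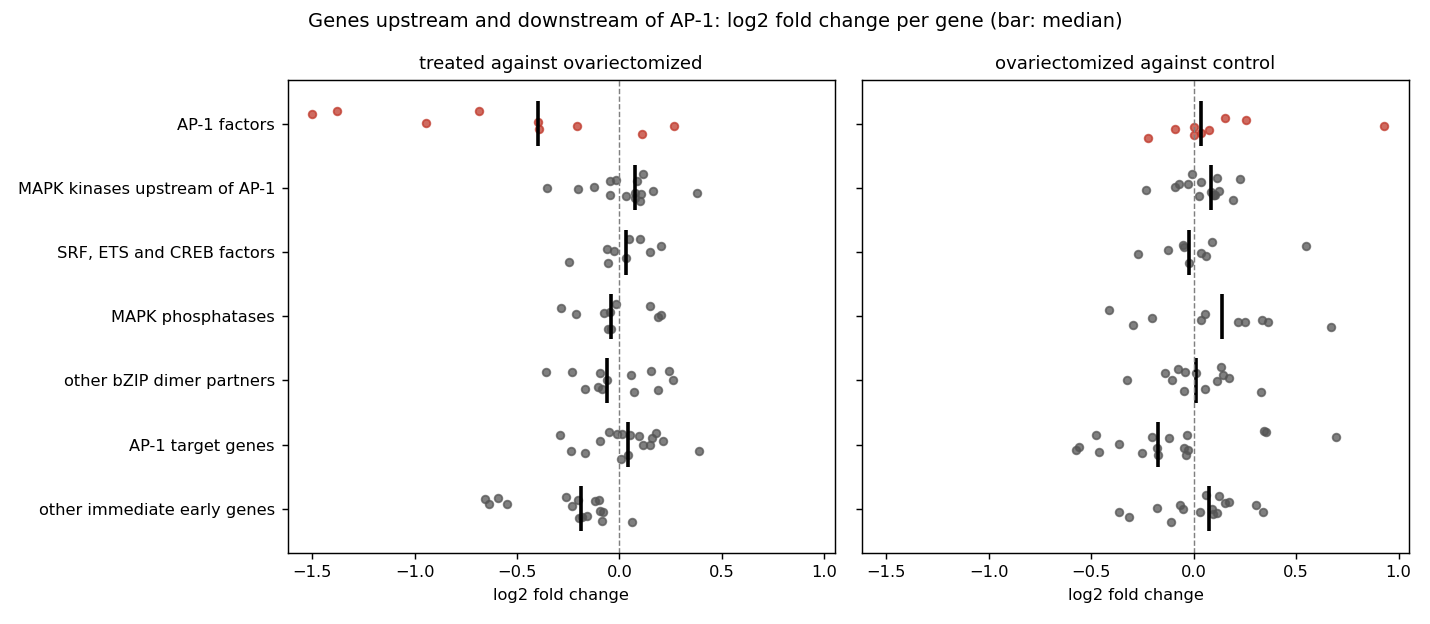
Log2 fold change (horizontal axes) of each tested gene in the AP-1 family and in 6 lists around it, for treated against ovariectomized rats and for ovariectomized against control rats. Points are genes, scattered vertically for legibility, and bars are medians; in the first panel the AP-1 median is -0.40 and the median of other immediate early genes -0.19, while the other 5 medians lie between -0.06 and 0.07.

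The genes whose log2 CPM followed Fos most closely over the 9 libraries were named by Pearson's r, as a description that the 3 groups and the treated libraries in particular dominate. Outside the family they were Ehd3 (r = 0.940), Egr1 (0.936), Lenep (0.928), Cxcl1 (0.928), Kcnj14 (0.924) and Alg12 (0.922). Cxcl1, a neutrophil-attracting chemokine, was at 0.975 to 1.54 FPKM in treated rats, 1.75 to 3.60 FPKM in ovariectomized rats and 2.49 to 3.28 FPKM in controls. Within the family, r with Fos was 0.963 for Fosb, 0.896 for Jun, 0.845 for Junb, 0.646 for Atf3, 0.473 for Jund, 0.407 for Maff, -0.254 for Fosl2 and -0.441 for Batf.

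With the group means removed, so that only variation between libraries of a group counts, a different set of genes was nearest to Fos. They were Dtx3l (r = 0.989), Parp14 (0.984), Phf14 (0.977), Mx2 (0.975), Snora7a (0.972) and Parp9 (0.969), and Mx2 is an interferon-induced GTPase. Ovariectomized replicate 1 stood above the other 8 libraries in Dtx3l, Parp14, Mx2 and Parp9. Mx2 was at 29.9 FPKM there and at 2.65 to 5.13 FPKM in the other 8 libraries. Parp14 was at 27.7 FPKM there and at 6.83 to 13.2 FPKM elsewhere. For Phf14 (6.64 FPKM) and Snora7a (10.1 FPKM) that library lay within the range of the other 8, 5.82 to 6.99 FPKM and 5.63 to 10.3 FPKM. Without that library r over the other 8 was 0.936 for Dtx3l, 0.929 for Parp14 and 0.856 for Mx2. It was 0.896 for Snora7a, 0.884 for Phf14 and 0.824 for Parp9. The genes were picked by r over libraries that include these 8, so these values are a description and no independent support. Among members, r with group means removed was 0.862 for Fosb and 0.634 for Jun, and 0.114 for Atf3.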

How the data were processed

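The authors deposited, per the file headers, 1 table with a whole-number count and an FPKM value per gene and library, indexed by Ensembl identifier, symbol and position. fastp, HISAT2 and StringTie are named in the submitters' processing notes, and the sources used here do not give the counting method, strand or genome build. Members were taken by symbol. Genes averaging 1 FPKM or more over all libraries were fitted on the deposited counts with edgeR 4.0.16 (R 4.3.3): TMM factors, 1 quasi-likelihood fit over 9 libraries, Benjamini-Hochberg adjustment over all 13886 genes, threshold 0.05. The step was tested on simulated data. The common coefficient of biological variation was 0.262. No 2 libraries agreed within sampling noise (lowest chi-square per degree of freedom 64.6). Deviations from the group means correlated at 0.240, 0.139 and 0.137 between same-numbered ovariectomized and control libraries. Some differently numbered pairs came near these values, such as control 2 with ovariectomized 3 (0.118) and ovariectomized 2 with treated 1 (0.141). The own number correlated best in 9 of 18 cases of a library and another group. The labels state no pairing, and whether libraries are paired was not settled. For Fosl1, with 39 to 107 counts per library, counting error adds to the spread.

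Members and lists were chosen with earlier results of these data known. All members are named. From each list came the 3 genes with the smallest p in ovariectomized against control and in treated against ovariectomized rats. The 6 genes with the highest Pearson's r with Fos, with and without group means removed, were also named; r without 1 library was added after seeing the data. Some genes that this rule names are not reported here. Of the listed symbols, Mrtfb, Mkl1, Mkl2, Cyr61 and Ctgf had no row and were not analysed here. Promoter windows are from RefSeq (GRCr8), matched by symbol. Alternatives were DESeq2 1.42.0, limma 3.58.1 on log2(FPKM + 1) and log2(FPKM + 0.1), other scalings, filters, sample sets and variance models, a replicate block, and each library left out.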

Additional observations from a re-analysis of the deposited data

How the results depend on the processing

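edgeR called 0 genes in each of the 3 comparisons. DESeq2 called 59 for ovariectomized against control, 35 for treated against ovariectomized and 153 for treated against control rats, and fits on only the 2 groups compared called 2, 1 and 1. With single libraries left out, the counts ranged from 0 to 4, from 0 to 2 and from 0 to 3. Other filters, scalings, the robust fit and limma called 0. The fit with the replicate block called 0 genes in all 3 comparisons and changed no call. For the treated group, same-numbered pairs with the other groups had correlations of deviations of -0.126 to 0.0731. The labels state no pairing for any group.

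Under every alternative run that kept them, Fos, Fosb, Jun, Junb and Atf3 kept negative estimates in both treated comparisons. The treated libraries chose the family, so these kept signs are a description and no independent support. Atf3 for treated against ovariectomized rats ranged from -1.80 (without treated replicate 1) to -0.79 (limma on log2(FPKM + 1), where the pseudocount is large beside its level). Without control replicate 2, Jund turned to 0.0059 for treated against control rats, and without treated replicate 1, Maff turned to 0.04. In ovariectomized against control rats, estimates near 0 turned. Jun was at -0.0011 in DESeq2 and under median-of-ratios factors, at -0.0067 without a filter and at -0.0096 with the block. Batf was at 0.0485 and 0.0586 in the limma fits on log2(FPKM + 1) and log2(FPKM + 0.1), and at 0.0111 with the block; the cause was not tested. With single libraries left out, the range was -0.305 to 0.0138 for Fos, -0.21 to 0.31 for Fosb, -0.12 to 0.22 for Fosl2, -0.21 to 0.14 for Jun, -0.0174 to 0.20 for Jund and -0.18 to 0.16 for Batf. Depth limits Fosl1, with 39 to 107 counts per library.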
